A study of Rattus norvegicus with 18 samples.

Results

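Gem, Rrad, Rem1 and Rem2 are the 4 RGK genes of the rat, named after Rad, Gem and Kir, and were taken by name out of the 14557 genes that had a transcript cluster (a set of array probes read as 1 value) of their own on the array. The group was chosen by the Gem values on the arrays with the inhibitor KB-R7934, which had stood higher than with either trigger alone, so the inhibitor values below are given as a description. Each of the 4 genes had exactly 1 cluster carrying its symbol alone, 17797288 for Gem, 17727551 for Rrad, 17767392 for Rem1 and 17698658 for Rem2. The cells were neonatal rat ventricular cardiomyocytes kept in culture for 3 days, in a preparation enriched in myocytes but not free of other cells, and they were read on 18 Rat Gene 2.0 ST arrays. Cells of the stretch experiment grew on collagen-coated flexible plates. They were stretched cyclically by 20% for 24 h with 10 µM KB-R7934 (stretch + KB), stretched likewise without it (ST) or left static (ST control). Cells of the tachycardia experiment grew on gelatin-coated dishes and were paced for 3 h at 8 Hz with 10 µM KB-R7934 (tachycardia + KB), at 8 Hz without it (TC) or at 1 Hz (TC control). Each of the 6 groups held 3 biological replicates, each array pooling RNA of 2 to 6 technical replicates. KB-R7934, as the labels spell it, inhibits the sodium-calcium exchanger NCX, mainly when it runs in reverse and lets calcium in. The study could not exclude other targets of the inhibitor, and names TRP, calcium and potassium channels as examples. On these arrays the inhibitor was only given together with a trigger. Its values can be set against ST or TC but not against static or slowly paced cells that received it. In its PCR experiments the study also gave the inhibitor to control cells.

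RGK proteins are small Ras-like GTPases that sit at the plasma membrane and bind the beta subunit of voltage-gated calcium channels. Overexpressed in myocytes or in channel-expressing cell lines, each of them lowers the L-type calcium current, the current that triggers contraction. Rad, the product of Rrad, is the main RGK protein of heart muscle, and its release from the channel after phosphorylation by protein kinase A lets beta-adrenergic signals raise the current. Gem is an inducible member first found in mitogen-activated T cells, Rem1 is known from heart and skeletal muscle, and Rem2 is best known from neurons, where activity induces it.

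RefSeq start-site windows on GRCr8 were at hand for 2 of the 4 genes, Rem1 and Rem2, each running from 250 bases before to 50 bases after the start. They are shown because they were the only windows at hand, and no link between their motifs and the expression values was tested. The Rem1 window lies at chr3:161563788-161564087 and the Rem2 window at chr15:31903722-31904021, both on the plus strand and printed 5′ to 3′. Capitals mark GGGCGG, the GC box, in Rem1 and TGACNTCA, a motif of the cyclic AMP response element type, in Rem2.
Rem1: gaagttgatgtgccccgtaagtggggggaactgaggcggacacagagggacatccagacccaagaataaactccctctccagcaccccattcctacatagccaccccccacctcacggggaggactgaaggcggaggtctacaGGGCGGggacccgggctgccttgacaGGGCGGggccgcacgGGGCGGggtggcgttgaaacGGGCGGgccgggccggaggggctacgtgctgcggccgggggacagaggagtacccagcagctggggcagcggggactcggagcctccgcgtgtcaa
Rem2: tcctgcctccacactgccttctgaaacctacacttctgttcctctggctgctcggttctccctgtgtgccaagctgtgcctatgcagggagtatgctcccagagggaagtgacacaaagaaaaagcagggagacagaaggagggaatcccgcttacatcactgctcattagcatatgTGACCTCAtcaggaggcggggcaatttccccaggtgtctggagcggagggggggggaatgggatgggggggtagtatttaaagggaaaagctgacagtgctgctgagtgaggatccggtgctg
The Rem1 window held GGGCGG 4 times, the first at base -107 relative to the start, and the Rem2 window did not hold it on either strand. Of 33469 RefSeq windows of this length, 33.1% held GGGCGG on at least 1 strand. The Rem2 window held TGACNTCA 1 time, as TGACCTCA at base -73 and so not as the full element, and the Rem1 window did not hold it. Of all windows 10.2% held TGACNTCA. The MEF2-type motif and TATAAA, the TATA box, were in neither window and in 3.84% and 14.2% of all windows. The motifs do not overlap one another where they matched, and a match is a run of letters, not evidence of binding.

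Values are log2 expression as deposited, on which a difference of 1 is a doubling. Gem and Rrad were the brighter signals, with means over the 18 arrays of 7.08 and 7.67, against 5.28 for Rem1 and 5.08 for Rem2. On each array, 25% of all clusters lay below 3.75 to 3.83, the median was 5.26 to 5.34, and 25% lay above 7.13 to 7.25. Rem1 and Rem2 thus stayed near the middle of the array. These ranks describe probe signals and do not order the 4 transcripts by abundance. All 4 genes lay above the lower quartile and none was lost to a filter on dim clusters.

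**Figure D1:**
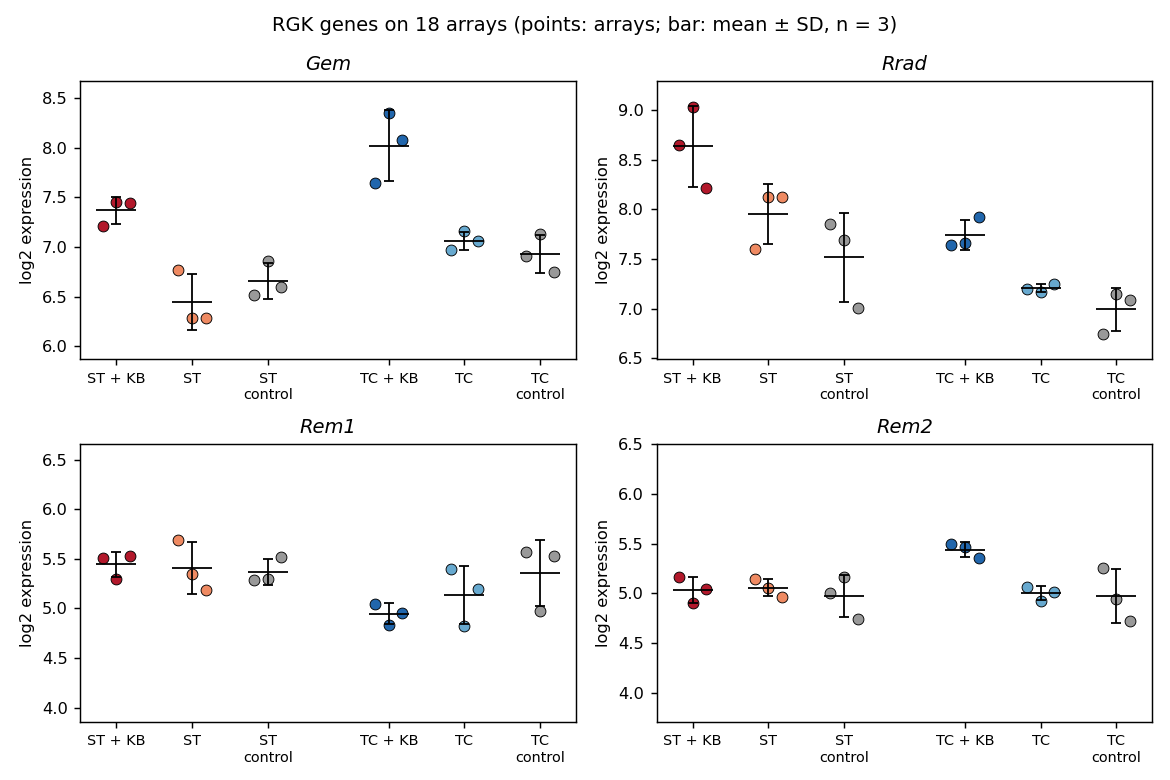
Log2 expression of the 4 RGK genes on each of the 18 arrays, by group, with points for arrays and bars for the mean ± SD (n = 3). ST is stretch, TC tachycardia and KB the inhibitor KB-R7934. All 4 panels span the same height on the log2 scale, so the Gem and Rrad shifts with KB can be compared with the flatter Rem1 and Rem2 panels.

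Gem stood highest where the inhibitor was present. Under stretch it read 7.21, 7.46 and 7.44 on the stretch + KB arrays, against 6.77, 6.28 and 6.29 on the ST arrays and 6.52, 6.86 and 6.60 on the ST control arrays. Every stretch + KB array lay above every other array of the stretch experiment. Under tachycardia Gem read 7.64, 8.35 and 8.08 on the tachycardia + KB arrays, against 6.97, 7.16 and 7.06 on the TC arrays and 6.91, 7.13 and 6.75 on the TC control arrays. Again the 3 arrays with KB stood apart from the other 6.

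The Gem mean with KB was 0.92 above ST (SE 0.16, a 1.89-fold difference, n = 3 arrays per group) and 0.96 above TC (SE 0.18, 1.94-fold). Only 181 of the 36685 clusters (0.493%) had a higher difference for KB on stretch, and 95 (0.259%) for KB on tachycardia. Because Gem was picked for these differences, no test was made of them, and their ranks are a description. Against the controls the KB groups stood 0.71 higher under stretch (SE 0.16, 1.63-fold) and 1.09 higher under tachycardia (SE 0.18, 2.13-fold). These last values rest on the same KB arrays and add no separate evidence.

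Neither trigger alone moved Gem past a threshold. The ST mean was 6.45 ± 0.28 and the ST control mean 6.66 ± 0.18 (SD, n = 3 each), a difference of -0.21 (SE 0.16, 95% interval -0.58 to 0.15, limma adjusted p = 0.830). The TC mean was 7.06 ± 0.09 and the TC control mean 6.93 ± 0.20, a difference of 0.13 (SE 0.18, interval -0.28 to 0.55, adjusted p = 1.00). The stretch and tachycardia arrays of these tests also stand in the inhibitor comparisons that chose Gem. The stretch effect was 0.35 below the tachycardia effect (difference -0.35, SE 0.25, adjusted p = 0.901), so the 2 triggers were not shown to differ for Gem.

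Ordered by group mean, Gem ran from tachycardia + KB (8.02 ± 0.36) through stretch + KB (7.37 ± 0.14), TC, TC control and ST control down to ST. The 2 KB groups did not overlap each other or TC, which followed them. From TC downwards, each group overlapped the next.

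Rrad, whose protein is the calcium channel brake of the adult heart, was also higher with the inhibitor, but its order of groups was another one. It read 8.65, 9.03 and 8.22 on the stretch + KB arrays, against 7.60, 8.12 and 8.13 on the ST arrays and 7.86, 7.69 and 7.00 on the ST control arrays. All stretch + KB arrays were above all ST arrays, though the lowest of them, 8.22, was only just above the highest ST array. Under tachycardia it read 7.65, 7.66 and 7.92 on the tachycardia + KB arrays, against 7.20, 7.17 and 7.25 on the TC arrays and 6.74, 7.15 and 7.08 on the TC control arrays. The 3 tachycardia groups did not overlap, in the order tachycardia + KB, TC, TC control.

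With KB the Rrad mean was 0.69 above ST (SE 0.27, 95% interval 0.07 to 1.31, 1.61-fold) and 0.54 above TC (SE 0.14, interval 0.22 to 0.85, 1.45-fold), again without a test. For KB on stretch 1.23% of clusters had a higher difference than Rrad, and for KB on tachycardia 2.07%. Against the controls the KB groups were 1.12 higher under stretch (SE 0.27, 2.17-fold) and 0.75 higher under tachycardia (SE 0.14, 1.68-fold). For Rrad, unlike Gem, the mean of the trigger alone was above its control in both experiments. ST was at 7.95 ± 0.30 and ST control at 7.52 ± 0.45, a difference of 0.43 (SE 0.27, interval -0.19 to 1.05, limma adjusted p = 0.783). TC was at 7.21 ± 0.04 and TC control at 6.99 ± 0.22, a difference of 0.21 (SE 0.14, interval -0.10 to 0.53, adjusted p = 1.00). Neither difference passed the adjusted threshold or a looser one used here, an unadjusted limma p under 0.05 with at least the 1.2-fold difference that the study required.

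The Rrad effects of the 2 triggers differed by 0.22 (stretch effect minus tachycardia effect, SE 0.32, adjusted p = 0.962). Between the control groups Rrad was 0.52 higher in ST control than in TC control (SE 0.23, limma adjusted p = 0.299), past the looser threshold and not past the adjusted one. At the looser threshold 7.43% of all clusters were higher in ST control, and 2.16% of clusters differed between the controls at an adjusted p under 0.05 in either direction, none of them an RGK gene. The control groups differed in surface, duration and pacing, which cannot be told apart here. Means were also lower in ST control for 9 of 9 cardiomyocyte and 6 of 9 fibroblast markers read. The same held for 6 of 9 macrophage and leukocyte markers. The part of cell types in the Rrad difference was not tested.

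Rem1 had its lowest mean in tachycardia + KB, without separating from the neighbouring group. Its values lay between 4.83 and 5.69 on all 18 arrays, and every group overlapped its neighbour in the order of means, from stretch + KB (5.44 ± 0.13) to tachycardia + KB (4.94 ± 0.11). The difference was 0.04 for ST against ST control (SE 0.15, 95% interval -0.29 to 0.38, limma adjusted p = 0.975) and -0.22 for TC against TC control (SE 0.20, interval -0.67 to 0.23, adjusted p = 1.00). With KB it stood 0.04 above ST (SE 0.15) and differed from TC by -0.19 (SE 0.20) and from TC control by -0.41 (SE 0.20, 95% interval -0.86 to 0.03). Both intervals for the triggers reach to both sides of 0, so a small change was not detectable with 3 arrays per group.

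Rem2 was flat in the stretch experiment and higher with KB in the tachycardia experiment. It read 5.49, 5.47 and 5.35 on the tachycardia + KB arrays, against 5.07, 4.93 and 5.01 on the TC arrays and 5.26, 4.94 and 4.72 on the TC control arrays. The KB arrays lay above all others of that experiment, with a mean 0.44 above TC (SE 0.14, 95% interval 0.11 to 0.76, 1.35-fold) and 0.47 above TC control (SE 0.14). For KB on tachycardia 3.58% of clusters had a higher difference. In the stretch experiment the 9 values lay between 4.75 and 5.17, and KB differed from ST by -0.02 (SE 0.13, interval -0.32 to 0.28). Without the inhibitor Rem2 differed from its control by 0.08 in ST (SE 0.13, limma adjusted p = 0.945) and by 0.03 in TC (SE 0.14, adjusted p = 1.00). Apart from tachycardia + KB, the 5 group means lay within 4.97 to 5.06 and overlapped.

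**Figure D2:**
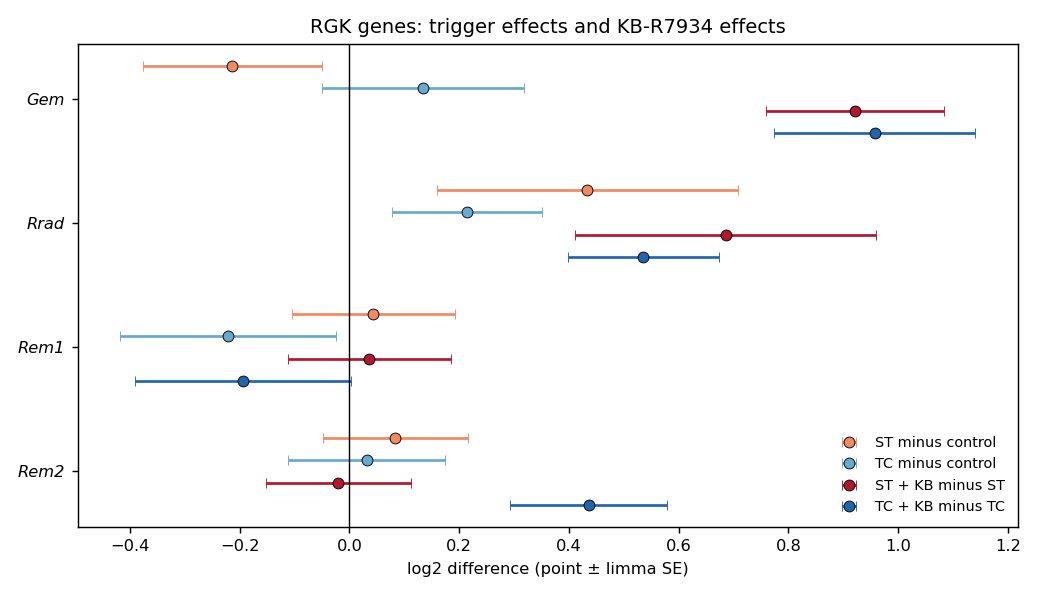
Log2 differences of group means for the 4 RGK genes, with points for the difference and bars for the limma SE. Gem has both KB differences near 0.9 (0.92 on ST and 0.96 on TC) and both trigger differences near 0, Rrad has all 4 above 0, and Rem2 stands out only for KB on TC (0.44).

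Over the 4 genes, the arrays with KB did not overlap those of the trigger alone for 2 under stretch (Gem and Rrad), where 7.9% of all clusters were fully higher with KB, and for 3 under tachycardia (Gem, Rrad and Rem2), where 5.57% were. Since that contrast chose Gem, nothing is read from these counts. For ST against ST control, 0 of the 4 genes had groups that did not overlap (12.3% of all clusters, either direction) and 0 passed the looser threshold (7.45%). For TC against TC control, 1 gene, Rrad, had groups that did not overlap (8.58% of clusters) and 0 passed the looser threshold (3.91%). By limma 0 of the 36685 clusters passed an adjusted p of 0.05 for either trigger, with 2875 at an unadjusted p under 0.05 for stretch and 1473 for tachycardia. For the difference between the trigger effects 0 passed, with 2210 at an unadjusted p under 0.05.

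The calcium channel genes read here did not pass a threshold under either trigger in the main fit, but they are too few to set apart from all clusters. Of 17 L-type calcium channel subunits listed, 10 had a cluster of their own. Of these, 0 passed the looser threshold under stretch (7.45% of all clusters) or tachycardia (3.91%). Without ST control replicate 1 the count was 1 for stretch, and without TC control replicate 2 it was 1 for tachycardia. Their median difference was 0.09 in stretch and 0.00 in tachycardia, beside 0.00 over all clusters for both. The accessory subunits Cacna2d1 and Cacna2d2, which carry the channel to the membrane, were at 0.14 (SE 0.16) and 0.17 (SE 0.16) in ST against its control, and at 0.02 (SE 0.11) and -0.02 (SE 0.22) in TC against its control. Cacnb4, the only beta subunit with a cluster of its own, which is the family RGK proteins bind, was at 0.10 (SE 0.18) and 0.27 (SE 0.15). The main pore and beta subunits of cardiac muscle, Cacna1c and Cacnb2, and the exchangers Slc8a1, Slc8a2 and Slc8a3 were not analysed here, since the platform table gave none of them a cluster of its own. Of 6 other calcium channel pore subunits 3 were read, with 0 past the looser threshold (1 for stretch without ST control replicate 1). Among them the T-type pore Cacna1h stood at 0.30 (SE 0.21) in ST and 0.05 (SE 0.27) in TC.

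Of 17 listed binding partners of RGK proteins, 10 were read. Most of these encode 14-3-3 proteins, which hold RGK proteins in the cytosol. Under stretch 2 passed the looser threshold as higher, the 14-3-3 genes Ywhah at 0.36 (SE 0.14, limma adjusted p = 0.597) and Ywhaq at 0.27 (SE 0.12, adjusted p = 0.635), where 3.12% of all clusters were higher by that rule. The count of 2 fell to 0 without ST replicate 1 or 2 or ST control replicate 2 and to 1 without ST control replicate 3, and it was 3 higher and 1 lower without ST control replicate 1 and 0 with only the 6 arrays compared in the fit. Under tachycardia 0 of the 10 passed (3.91% of all clusters), and the list medians were 0.07 for stretch and 0.01 for tachycardia.

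The beta-adrenergic and protein kinase A list, upstream of Rad, had 7 of 10 genes read. All 7 means were higher in ST than in ST control, with a median of 0.12. The looser threshold was passed by 0 of them (1 without ST control replicate 1) and by 7.45% of all clusters. Under tachycardia 1 of 7 passed as higher, Prkar1b, a regulatory subunit of the kinase, at 0.31 (SE 0.13, adjusted p = 1.00), with a list median of -0.02 and 2.09% of all clusters higher by that rule. Prkar1b no longer passed without any 1 of TC replicates 2 and 3 or TC control replicates 2 and 3, nor with equal array medians, quantile normalization, trend and robust moderation, the two-way test or only the 6 arrays compared. Of 21 other Ras-like GTPases read (27 listed), 1 passed under stretch as lower, Rap2b at -0.28 (SE 0.11, limma adjusted p = 0.598), where 4.33% of all clusters were lower by that rule. Under tachycardia 0 passed, where 3.91% of all clusters did. The tachycardia count was 1 without TC replicate 2, TC replicate 3 or TC control replicate 2. Rap2b no longer passed without ST replicate 1 or 2 or ST control replicate 3, nor with equal array medians, quantile normalization, trend and robust moderation or all 18 arrays in the fit. The medians of this list were -0.01 for stretch and -0.02 for tachycardia.

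Genes that excitation or growth factors switch on quickly were listed because Gem and Rem2 are themselves inducible, and 14 of 18 were read. Under stretch 12 of the 14 means were lower than in ST control, with a median of -0.49, and 9 passed the looser threshold as lower, where 4.33% of all clusters did. Fos was at -0.95 (SE 0.12, limma adjusted p = 0.117), the nuclear receptor Nr4a1 at -1.05 (SE 0.19, adjusted p = 0.224) and Egr2 at -0.70 (SE 0.13, adjusted p = 0.244). Each of these had all 3 ST arrays below all 3 control arrays, and 12.3% of all clusters had no overlap in either direction. Under tachycardia all 14 means were higher than in TC control, with a median of 0.31, and 1 passed as higher, Arc at 0.41 (SE 0.14, adjusted p = 1.00), where 2.09% of all clusters did. The tachycardia median depended on single arrays. It was 0.10 without TC replicate 2, 0.09 without TC control replicate 3 and 0.54 without TC control replicate 2, and the count past the threshold was 0, 0 and 4 in these settings. Gem had the same signs as this list, -0.21 in stretch and 0.13 in tachycardia, nearer to 0 than the list's median in each. Both Gem intervals reach to both sides of 0, so its signs are not settled. Rrad (0.43), Rem1 (0.04) and Rem2 (0.08) had the other sign in stretch. In tachycardia Rrad (0.21) and Rem2 (0.03) had the sign of the list and Rem1 (-0.22) did not. By the test of the stretch effect against the tachycardia effect, 9 of the 14 passed the looser threshold as lower (3.41% of all clusters) and 0 passed the adjusted one, with Fos at -1.33 (SE 0.45) and Nr4a1 at -1.42 (SE 0.46). With KB, 13 of the 14 means were higher than in TC (median 0.19). Against ST, 8 were higher and 6 lower with KB (median 0.02). These KB values are a description.

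**Figure D3:**
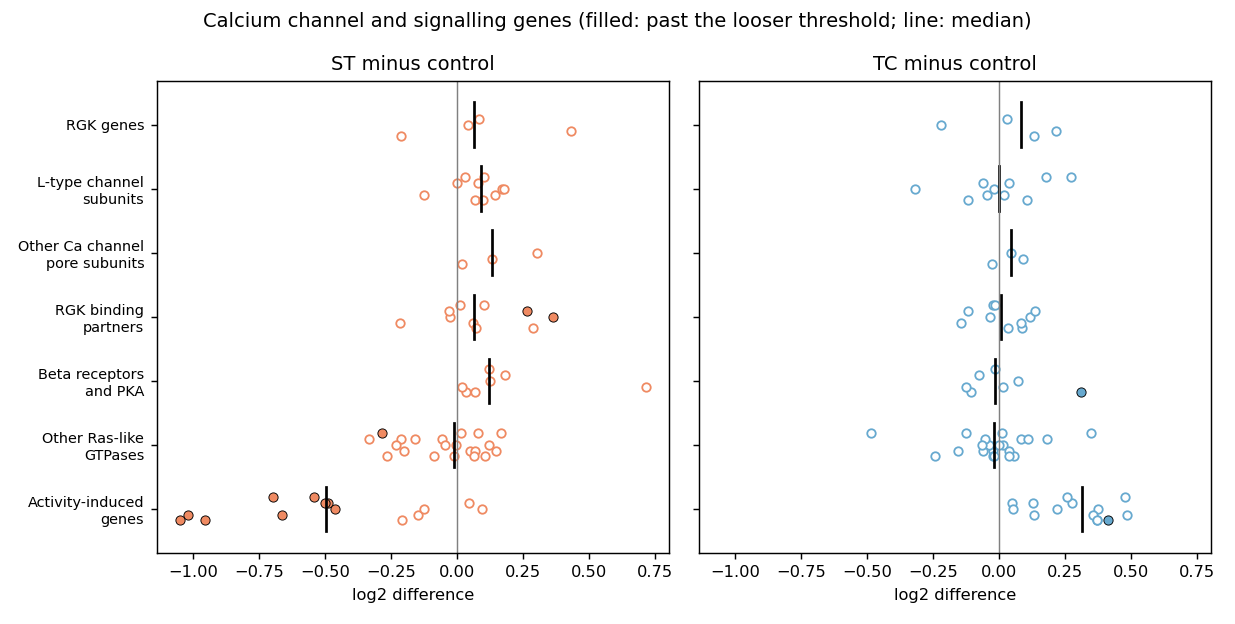
Log2 differences of ST minus ST control (left) and TC minus TC control (right) for the RGK genes and the 6 lists that had clusters of their own. Points are genes, filled where they passed an unadjusted p under 0.05 and 1.2-fold, and black lines are list medians. Channel, partner, kinase and GTPase lists sit around 0, and the activity-induced genes lie at a median of -0.49 under stretch and 0.31 under tachycardia.

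Cardiomyocyte markers were bright in every group. The 9 cardiomyocyte markers read had mean levels per array of 11.17 to 11.55 in stretch + KB, 11.15 to 11.55 in ST and 10.73 to 11.33 in ST control, and of 11.35 to 11.55 in tachycardia + KB, 11.32 to 11.53 in TC and 11.27 to 11.49 in TC control. Markers of macrophages and leukocytes moved with the inhibitor, as Gem did but the other way. Of these 9 markers, 8 had lower means with KB than without under stretch (median -1.45) and 8 under tachycardia (median -0.57), among them Ptprc at -1.45 (SE 0.61) and -1.01 (SE 0.30). The exception in both was Cx3cr1, at 0.06 (SE 0.12) and 0.48 (SE 0.17). The mean level of the list per array was 5.27 to 6.16 in stretch + KB, against 6.13 to 7.64 in ST and 6.29 to 7.37 in ST control. In the tachycardia experiment it was 6.24 to 6.83 in tachycardia + KB, against 6.82 to 7.16 in TC and 6.59 to 7.33 in TC control. Under stretch the median of -1.45 became -0.83 without ST replicate 3.

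The mean level of 9 fibroblast markers overlapped between all groups of an experiment, at 8.90 to 9.05 in stretch + KB, 8.83 to 9.41 in ST and 8.52 to 9.34 in ST control, and at 9.35 to 9.57 in tachycardia + KB, 9.44 to 9.63 in TC and 9.47 to 9.74 in TC control. Single markers went both ways with KB under stretch, where Dcn stood 0.92 above ST (SE 0.27) and the collagens Col1a1 and Col1a2 were at -0.64 (SE 0.24) and -0.62 (SE 0.18). With KB, 6 of 9 fibroblast, 4 of 4 endothelial, 1 of 2 smooth muscle and 2 of 4 neuron and Schwann cell markers had lower means than in ST, and 8, 3, 1 and 3 of the same had lower means than in TC. No marker can be called absent on these arrays, which give a background signal to every probe. In a bulk culture, fewer cells of a type and less RNA per cell cannot be told apart. The part of other cell types in the Gem, Rrad and Rem2 values was not tested.

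The 8 genes whose pattern was most like that of Gem were taken by Pearson r over the 18 arrays, each experiment centred on the mean of its 9 arrays, among 8726 genes whose mean over the arrays was above the median of all clusters. They were Taf6l, Bhlhe40, Atp6v1c1, Slc26a2, Pip4p1 and Insig1 at r = 0.87 and Pacc1 and Tbkbp1 at r = 0.84. All genes were read on the same 18 arrays, and the pattern of Gem holds the KB difference that chose it, so the r is a description. Within the 9 stretch arrays these r lay between 0.75 and 0.94, and within the 9 tachycardia arrays between 0.80 and 0.91. Without the 2 arrays farthest from the median of Gem they lay between 0.75 and 0.87. By rank correlation (Spearman) 3 of the 8 stayed among the first 8, and with centring on the controls 6 of the 8.

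All 8 had higher means with KB in both experiments, which their choice by likeness to Gem favours. Bhlhe40, a transcriptional repressor of the circadian clock and of stress responses, was 0.88 above ST (SE 0.13) and 0.43 above TC (SE 0.24). Insig1, which holds sterol-sensing proteins in the endoplasmic reticulum, was 0.96 above ST (SE 0.13) and 0.41 above TC (SE 0.19). Pacc1, a proton-activated chloride channel, and the sulfate transporter Slc26a2 leaned the other way, at 0.35 (SE 0.12) and 0.43 (SE 0.12) on ST, and at 0.67 (SE 0.15) and 0.62 (SE 0.14) on TC. Gem itself had nearly equal values on both.

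**Figure D4:**
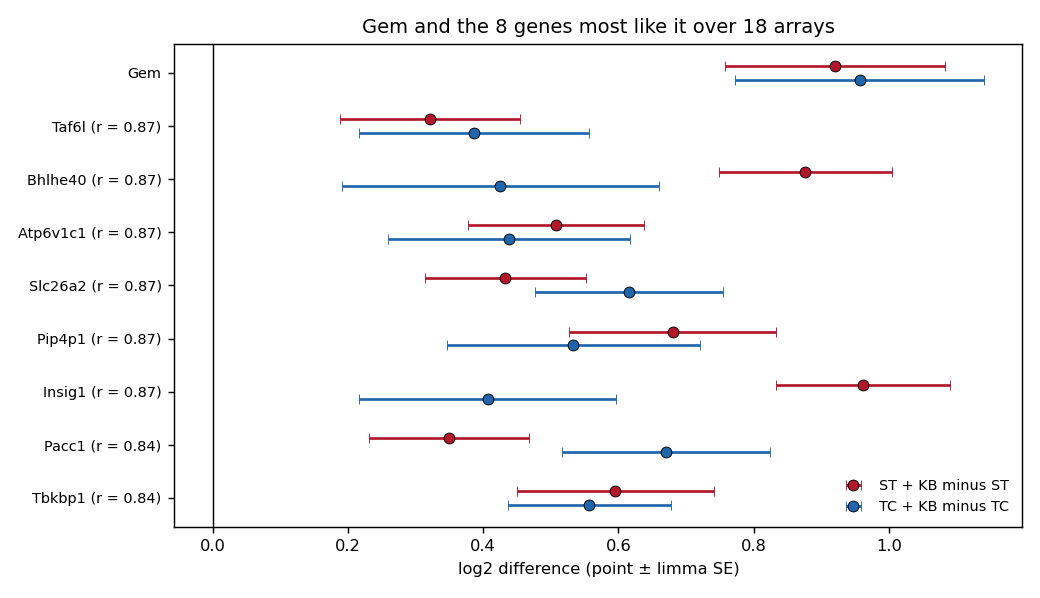
Log2 differences of KB with a trigger minus the trigger alone for Gem and the 8 genes most like it over the 18 arrays, with points for the difference and bars for the limma SE. Pearson r with Gem stands beside each name. All differences are above 0, which the choice by likeness to Gem favours. Gem, itself picked for these differences, has the highest for TC of the genes plotted (0.96), while Insig1 reaches 0.96 for ST.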

How the data were processed

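The authors profiled 18 samples on Rat Gene 2.0 ST arrays and deposited 1 log2 expression value per transcript cluster and array, made in Partek Genomics Suite. Background correction, normalization and genome build are not given in the sources used here. No column was without a sample. Of 36685 clusters, the platform annotation gives exactly 1 gene symbol to 14824 (40.4%), several to 829 and none to 21032. A gene was read on its brightest cluster with that symbol alone. Groups and replicates came from the labels. The deposited log2 values entered limma 3.58.1 (R 4.3.3) as group means with eBayes, over the 9 arrays of an experiment, or all 18 for comparisons across experiments, with Benjamini-Hochberg adjustment over all clusters and a threshold of 0.05. The fit was tested on simulated data. Beside it stands a looser threshold, an unadjusted limma p under 0.05 and at least 1.2-fold. The fold is the study's; for its arrays the study names a two-way ANOVA with Benjamini-Hochberg correction. Comparisons that hold KB-R7934 were described without tests, by differences, SEs and ranks, and for Rrad, Rem1 and Rem2 by some intervals. The number of arrays limits the precision.

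Members and gene lists were chosen with earlier results of these data known. Named genes were the 4 members, the 8 genes most like Gem, and list genes past the looser threshold. Promoter windows came from RefSeq (GRCr8). Alternatives changed the block, the arrays fitted, moderation, normalization, the dim filter, the clusters adjusted over and the test, and left out single arrays.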

Additional observations from a re-analysis of the deposited data

How the results depend on the processing

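No RGK gene passed an adjusted p of 0.05 for stretch, tachycardia, their difference or the controls under any alternative run, and outside the settings that leave out 1 array no difference of an RGK gene changed sign. Leaving out single arrays, the Gem difference ranged over 0.84 to 1.08 for KB on ST, 0.79 to 1.15 for KB on TC, -0.38 to -0.11 for ST and 0.04 to 0.24 for TC. For Rrad it ranged over 0.49 to 0.89, 0.45 to 0.58, 0.18 to 0.61 and 0.09 to 0.29 in the same order, and for Rem2 over 0.40 to 0.48 for KB on TC. The KB ranges of Gem rest on the values that chose it and add no separate evidence. Differences near 0 changed sign in 18 settings that leave out 1 array. Their ranges were -0.10 to 0.15 (Rem1) and -0.031 to 0.18 (Rem2) for ST, -0.10 to 0.17 (Rem2) for TC, -0.074 to 0.18 (Rem1) and -0.083 to 0.046 (Rem2) for KB on ST, -0.051 to 0.16 (Rem2) for stretch + KB against ST control, -0.19 to 0.11 (Rem1) and -0.12 to 0.15 (Rem2) between the controls, and -0.038 to 0.39 (Rrad) and -0.091 to 0.18 (Rem2) for the stretch effect minus the tachycardia effect. The labels do not say that equal replicate numbers mark a shared isolation, and not every same-numbered pair deviated together at r above 0.1, so the numbers were not used to pair arrays. As a hint from the data, r was above 0.1 in 7 of 9 same-numbered pairs of each experiment (0.006 to 0.295 for stretch, -0.005 to 0.264 for tachycardia) and in 0 of 18 differently numbered pairs of each (highest 0.049 and 0.071), and 9 of 9 and 8 of 9 arrays correlated best with their own number. In a fit that took replicate numbers as a block, the Gem difference stayed at -0.21 for ST (adjusted p = 0.761) and 0.13 for TC (adjusted p = 0.955), the clusters past the looser threshold went to 3482 for ST (2734 without the block) and 1900 for TC (1433 without it), and no RGK call changed. The block added list genes past the looser threshold, for ST Cacna1h at 0.30 (block SE 0.12), Akap5 at 0.72 (block SE 0.19) and Rasl11a at -0.34 (block SE 0.11), and for TC Rap2b at -0.48 (block SE 0.19), Rasl11b at 0.35 (block SE 0.11) and 1 more activity-induced gene. At 1.5-fold in place of 1.2-fold, without the block, the clusters at an unadjusted p under 0.05 were 877 for ST and 498 for TC, and 1077 for KB on ST and 711 for KB on TC (3348 and 2115 at 1.2-fold). Clusters at an adjusted p under 0.05 for ST were 26 with all 18 arrays in 1 fit, 6 with trend and robust moderation, 20 over clusters with 1 symbol and 25 without ST control replicate 1, against 0, and none was an RGK gene. Fos reached an adjusted p of 0.0271 over clusters with 1 symbol and 0.0499 without ST control replicate 1. With equal array medians 1356 clusters were higher and 1757 lower for tachycardia + KB against TC control at the looser threshold, and 1724 and 1448 as deposited. Reading a gene as the mean of all its clusters was not run, since each member has 1. The 3 arrays per group limit what could be detected.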

Other observations

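Among the 21 other Ras-like GTPases, Rasd1, a GTPase first found as induced by dexamethasone, had the largest difference with the inhibitor under stretch, 1.13 above ST (SE 0.19), and was 0.39 above TC (SE 0.12). Its KB arrays were apart from the trigger arrays in both, where 7.9% (stretch) and 5.57% (tachycardia) of all clusters were fully higher with KB. Mras was 0.52 below ST with KB (difference -0.52, SE 0.12) and at -0.14 (SE 0.14) on TC. Ralb stood 0.04 (SE 0.15) above ST and 0.33 (SE 0.13) above TC. The channel subunit Cacna2d2 stood at -0.46 (SE 0.16) against ST and at -0.05 (SE 0.22) against TC, and Cacna2d1 at -0.28 (SE 0.16) and -0.18 (SE 0.11). These genes were singled out after their values were seen, and no test was made.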
